A study of Mus musculus with 16 samples.

Results

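Lungs of adiponectin-deficient mice that had breathed room air were compared with lungs of wildtype mice in the same air, 4 arrays against 4 of the 16 arrays of the study, chosen by their titles. Each array was hybridised with total RNA from the left lung of 1 mouse, and each group held 2 males, called M1 and M2 here, and 2 females, F1 and F2. The mice were 14 weeks old on average. Both genotypes are labelled as C57BL/6 in background. The air mice breathed room air for 72 h. The other 8 mice, 4 of each genotype, were exposed to the air pollutant ozone at 0.3 ppm for as long. They are used here to see whether a genotype difference in air was met again in other animals. They also entered the fit of all 16 arrays, so the SE and p-values in air rest on the spread within all 4 groups. The sources used here do not say whether the mice were littermates, how the allele was made or which part of Adipoq it removes, so the genotype and the line the mice came from cannot be told apart. The labels number the mice within sex and do not say more of how they were housed. A measurement was available for 12393 genes, each through 1 probe set, and is given as log2 intensity, on which a difference of 1 is 2-fold. Each difference is deficient minus wildtype ± its SE from limma (4 arrays in every group), and a call means a limma p under 0.05 after Benjamini-Hochberg adjustment over all genes.

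Adiponectin is a hormone that fat cells secrete into the blood as trimers and larger assemblies. It signals through the membrane receptors AdipoR1 and AdipoR2 and is held on the surface of endothelium by T-cadherin, the product of Cdh13. In fat, its assembly in the secretory pathway is helped by chaperones such as Erp44 and Ero1a. The lung itself makes little of the hormone and meets it mainly through the circulation, so in lung tissue Adipoq is a marker of fat cells as well as the gene under study.

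In room air 1 gene of 12393 passed the threshold (0.00807%), Clec16a, which rose 1.57-fold in the deficient lungs. At an unadjusted p under 0.05 there were 732 genes (5.91%), 331 higher (2.67%) and 401 lower (3.24%). The median difference over all genes was -0.0030, the median SE 0.0824, and the median reach of the 95% confidence interval to either side of a difference 0.176. The difference was above 0 in 48.6% of the genes and below 0 in 51.4%.

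**Figure D1:**
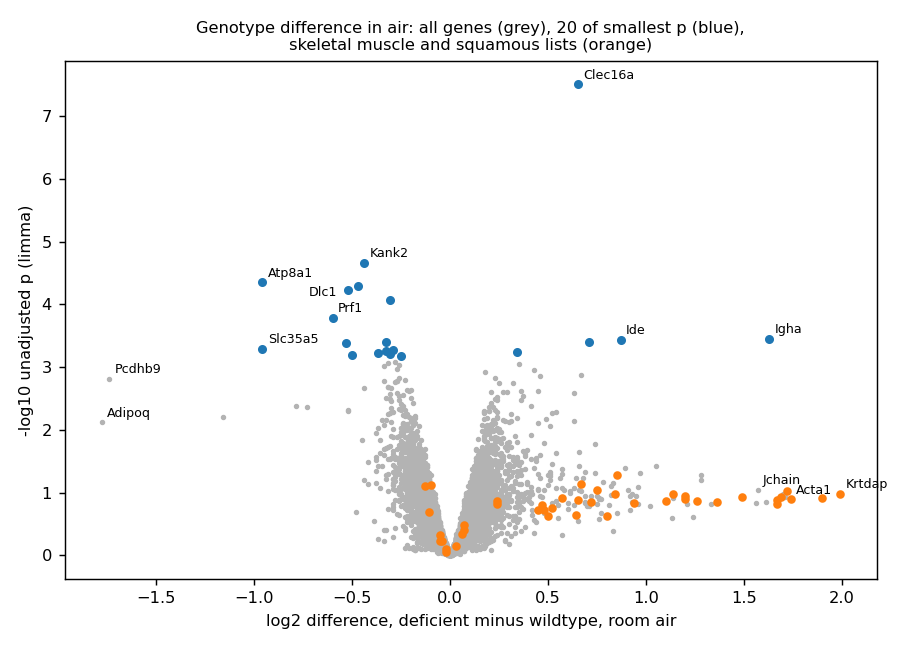
Genotype difference in room air (horizontal axis, log2) against -log10 of the unadjusted limma p (vertical axis) for 12393 genes in grey, with the 20 genes of smallest p in blue and the genes of the skeletal muscle and squamous epithelium lists in orange. Clec16a, at 0.65, stands highest, and the orange genes reach differences of up to 1.99 at p-values no smaller than those of many other genes.

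The labels were checked on the targeted gene. With arrays ordered from M1 and M2 to F1 and F2, here and below, Adipoq stood at 7.19, 8.05, 11.52 and 8.89 in wildtype air and at 6.32, 6.43, 6.97 and 8.82 in deficient air. The library labelled deficient F2 lay within the wildtype range and wildtype F1 far above the other arrays, so the groups overlapped. The difference was -1.78 (two-sided exact permutation p = 0.143, where 0.0286 is the smallest that 4 against 4 arrays allow), and -0.91 without wildtype F1 (exact permutation p = 0.286). After ozone Adipoq was 7.70, 7.77, 7.96 and 8.76 in wildtype and 6.36, 6.14, 6.33 and 6.07 in deficient lungs. Those groups did not overlap, with a difference of -1.82 (exact permutation p = 0.0286). Adipoq was read by 1 probe set, and the sources used here do not say whether it lies in the deleted part. Deficient air F2 stood well above the other 7 deficient arrays, which lay between 6.07 and 6.97. Wildtype air F1 and deficient air F2 also carried the markers of fat. Ucp1, the uncoupling protein of brown fat, was 7.25 and 7.27 there and between 4.62 and 4.98 on the other 6 air arrays. Retn, the fat cell product resistin, was 10.65 and 10.86 there and at most 8.41 elsewhere in air.

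Deficient air M2 carried markers of other tissues again. It held Acta1, the actin of skeletal muscle, at 13.08 and Krt4, a keratin of squamous epithelium, at 13.03, where the other 7 air arrays lay between 5.81 and 6.17 for Acta1 and between 5.64 and 6.00 for Krt4. Over the 22 skeletal muscle genes tested the mean level of deficient air M2 was 9.57, against 6.07 to 6.35 on the other air arrays. Over the 21 squamous genes it was 8.03, against 5.44 to 5.63. Over the 19 fat genes wildtype F1 and deficient F2 stood at 9.25 and 9.29, against 7.55 to 8.21. Wildtype F1, deficient M2 and deficient F2 are named below as the 3 arrays with foreign markers, and values without them are given beside the results they touch. Without them deficient air rests on M1 and F1 alone, and wildtype air on M1, M2 and F2. In these bulk samples, more cells of a type and more RNA per cell cannot be told apart. The labelled sexes held on Eif2s3y, a gene of the Y chromosome, at 7.29 to 8.05 in the 8 males and 4.11 to 4.46 in the 8 females. The lung label held on Sftpc, the surfactant protein of alveolar type 2 cells, at 14.51 to 14.59 on all air arrays. Median intensities ran from 145.9 to 153.7 over the arrays, whose number limits the precision.

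**Figure D2:**
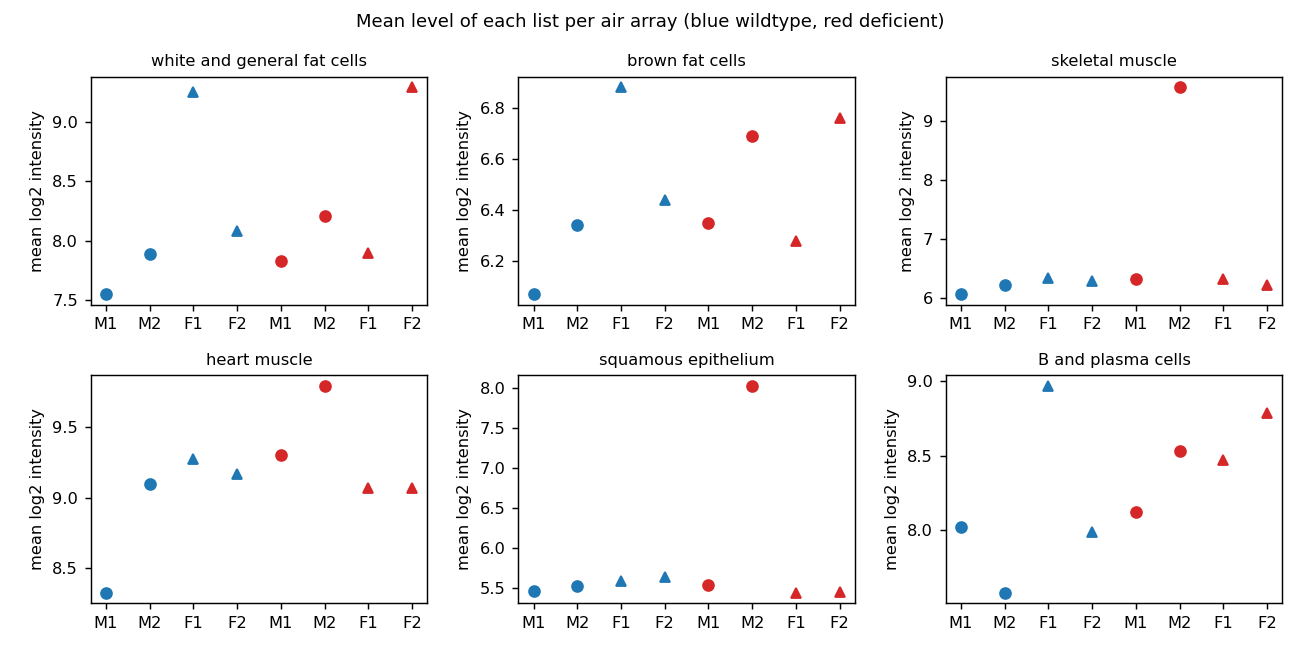
Mean log2 intensity of 6 lists of marker genes on each air array, wildtype in blue and deficient in red, males as circles and females as triangles. Deficient M2 stands at 9.57 on the skeletal muscle list and 8.03 on the squamous list, and wildtype F1 and deficient F2 stand at 9.25 and 9.29 on the list of fat cells.

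The receptors gave no call. Adipor1 stood at 10.86, 11.01, 10.63 and 10.63 in wildtype and 10.79, 10.86, 10.59 and 10.69 in deficient air, a difference of -0.05 ± 0.0775 (95% interval -0.21 to 0.12). Adipor2 differed by -0.18 ± 0.0905 (-0.37 to 0.02, adjusted p = 0.827). For both receptors the groups overlapped, and a 1.5-fold difference lies outside the interval. Cdh13, T-cadherin, was 7.74, 7.71, 7.71 and 7.73 in wildtype and 7.60, 7.80, 7.23 and 7.24 in deficient air, where deficient M1 and both females lay below the wildtype range and M2 above it. The difference was -0.26 ± 0.121 (adjusted p = 0.827) in air and -0.55 ± 0.121 in ozone (adjusted p = 0.143), where the groups did not overlap. Of the 11 genes tested on the list of adiponectin, its receptors and its signalling, 0 were called, 3 lay above 0 and 8 below, and their median was -0.07. Appl1, the adaptor of both receptors, differed by 0.08 ± 0.0972, and the chaperones Erp44 and Ero1a by -0.07 ± 0.0596 and 0.01 ± 0.0746. The 8 paralogs of adiponectin tested, of the C1q and TNF related family, lay between -0.14 and 0.08.

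Clec16a encodes a membrane-associated protein that regulates autophagy and the removal of mitochondria, and its locus is known for association with autoimmune disease. Its log2 intensity was 7.44, 7.43, 7.55 and 7.57 in wildtype air and 8.13, 8.16, 8.22 and 8.10 in deficient air. The lowest deficient array lay above the highest wildtype array by several times the spread within either group. The difference was 0.65 ± 0.0627 (95% interval 0.52 to 0.79, limma adjusted p = 3.87e-04). After ozone it was 7.46, 7.54, 7.60 and 7.69 in wildtype and 8.25, 8.14, 8.26 and 8.51 in deficient lungs, a difference of 0.72 ± 0.0627 (adjusted p = 1.06e-04), again without overlap. The genotype by exposure interaction was 0.07 ± 0.0887 (adjusted p = 0.993). Clec16a was called in air without the 3 arrays with foreign markers too, at 0.66 (adjusted p = 0.0357). In a fit of 8 groups by genotype, exposure and sex the air difference was 0.71 in males and 0.60 in females. With the arrays of 1 sex alone it was not called, at an adjusted p of 0.164 in males and 0.330 in females. The gene was read by 1 probe set, so no other probe set of it could be compared.

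The sequences around the starts of Clec16a and Adipoq are shown because the first is the gene that was called and the second the gene under study, both on chromosome 16. They are RefSeq's, build GRCm38.p6, 250 bases before to 50 after the start, both on the plus strand, at chr16:10545089-10545388 for Clec16a and chr16:23146286-23146585 for Adipoq. Capitals mark matches on either strand to CCAAT, the CCAAT box, and GGGCGG, the GC box; TATAAA and the E-box CACGTG were searched as well and had no match in these windows.
Clec16a: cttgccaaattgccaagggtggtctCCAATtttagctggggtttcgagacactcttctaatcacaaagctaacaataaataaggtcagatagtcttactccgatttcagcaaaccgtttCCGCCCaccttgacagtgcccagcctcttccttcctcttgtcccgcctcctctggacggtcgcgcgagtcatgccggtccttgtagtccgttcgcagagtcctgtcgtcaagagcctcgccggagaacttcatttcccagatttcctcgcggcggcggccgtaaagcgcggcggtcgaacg
Adipoq: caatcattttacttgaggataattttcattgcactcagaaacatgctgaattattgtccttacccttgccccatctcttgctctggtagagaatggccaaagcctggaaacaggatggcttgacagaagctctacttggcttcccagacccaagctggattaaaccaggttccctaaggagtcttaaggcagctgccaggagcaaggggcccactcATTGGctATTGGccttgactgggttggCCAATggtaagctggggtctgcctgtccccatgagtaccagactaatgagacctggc
The Clec16a window held 1 CCAAT box and 1 GC box and 25 CG pairs, and the Adipoq window held 3 CCAAT boxes, no GC box and 0 CG pairs. Over the 32851 windows of the same length in the table, 37.4% held a CCAAT box, 35.7% a GC box, 13.6% TATAAA and 7.2% CACGTG, and the median number of CG pairs was 7. A match is a run of letters and says nothing of a factor's binding.

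**Figure D3:**
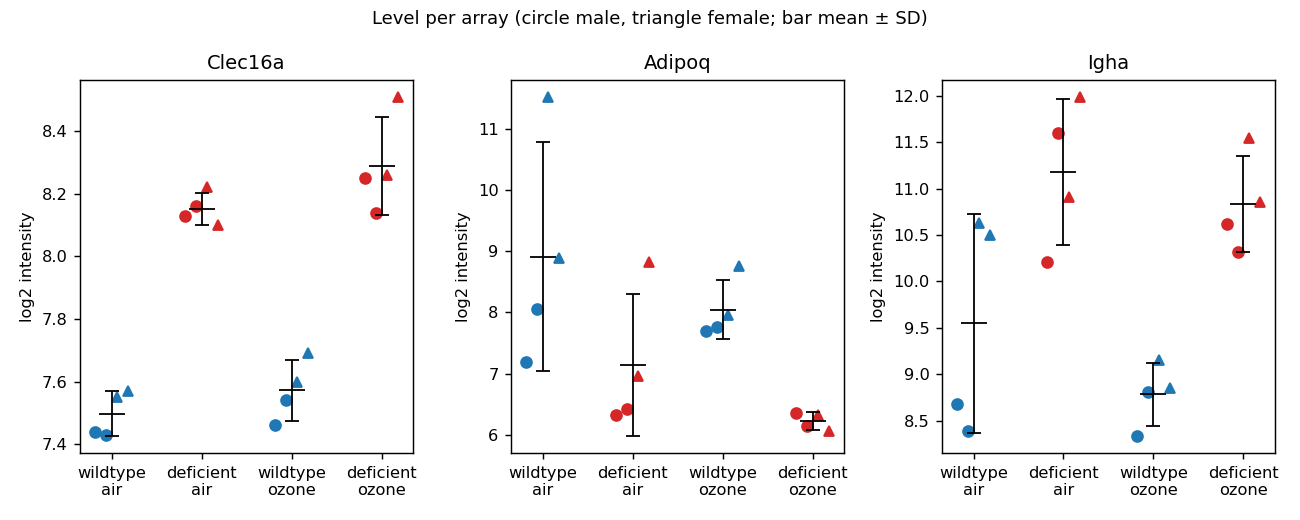
Log2 intensity of Clec16a, Adipoq and Igha on each array of the 4 groups, wildtype in blue and deficient in red, males as circles and females as triangles, with the mean ± SD in black. Clec16a is at 8.10 or more on every deficient array and at 7.69 or less on every wildtype array, while the Adipoq groups overlap in air and not in ozone.

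Clec16a lies on the same chromosome as Adipoq, with 114 tested genes between them in RefSeq's gene order. Its immediate neighbours gave no call. Socs1, an inhibitor of cytokine signalling, differed by -0.18 ± 0.0809, Dexi by -0.07 ± 0.125, and Ciita, the master regulator of MHC class II genes, by 0.10 ± 0.0957 in air and 0.35 ± 0.0957 in ozone (adjusted p = 0.241), where its groups did not overlap. Of the 50 tested genes nearest to Adipoq, 25 on each side, 0 were called and 3 (6.00%) had an unadjusted p under 0.05, close to the 5.91% of all genes. These were Chrd, which binds bone morphogenetic proteins, at -0.15 ± 0.0634, Opa1, which fuses mitochondrial inner membranes, at -0.17 ± 0.0726, and Gp5, a platelet glycoprotein, at 0.30 ± 0.132. Within 100 genes on each side the share was 19 of 200 (9.50%), and on the whole of chromosome 16 it was 38 of 414 (9.18%), the second highest of the 20 chromosomes compared after 28 of 300 (9.33%) on chromosome 18. No test of these shares was made.

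Farther along chromosome 16, at 79 to 83 tested genes from Adipoq, 4 of 5 neighbours had unadjusted p-values under 0.05, against 5.91% of all genes. The other, Tmem39a, differed by -0.08 ± 0.0782. Timmdc1, an assembly factor of mitochondrial complex I, was 6.88, 6.96, 6.85 and 6.78 in wildtype and 7.49, 7.05, 7.55 and 8.05 in deficient air, without overlap. It differed by 0.67 ± 0.170 in air and 0.68 ± 0.170 in ozone, with adjusted p-values of 0.561 and 0.213. Poglut1, which glucosylates Notch proteins, differed by -0.33 ± 0.0764, Arhgap31, a GTPase-activating protein for Rac and Cdc42, by -0.34 ± 0.0828, and B4galt4, a galactosyltransferase, by -0.34 ± 0.0879 in air. So did the 3 genes at 97 to 99 tested genes. Slc35a5, a member of the nucleotide sugar transporter family, was 9.38, 9.75, 9.45 and 9.40 in wildtype and 9.04, 8.73, 8.04 and 8.33 in deficient air, all lower in the deficient lungs. Its difference was -0.96 ± 0.218 in air (adjusted p = 0.406) and -0.65 ± 0.218 in ozone. The neighbouring Atg3, an autophagy enzyme, differed by -0.22 ± 0.0770, and Cd200, a surface ligand that restrains myeloid cells, by -0.53 ± 0.118. None of these 8 genes passed the threshold, and all but Poglut1, Slc35a5 and Cd200 were named after their values were seen. The limits of these stretches were also set after the values were seen. The tested genes between them, from Gap43 at 84 to Ccdc80 at 96, all had unadjusted p-values above 0.05.

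**Figure D4:**
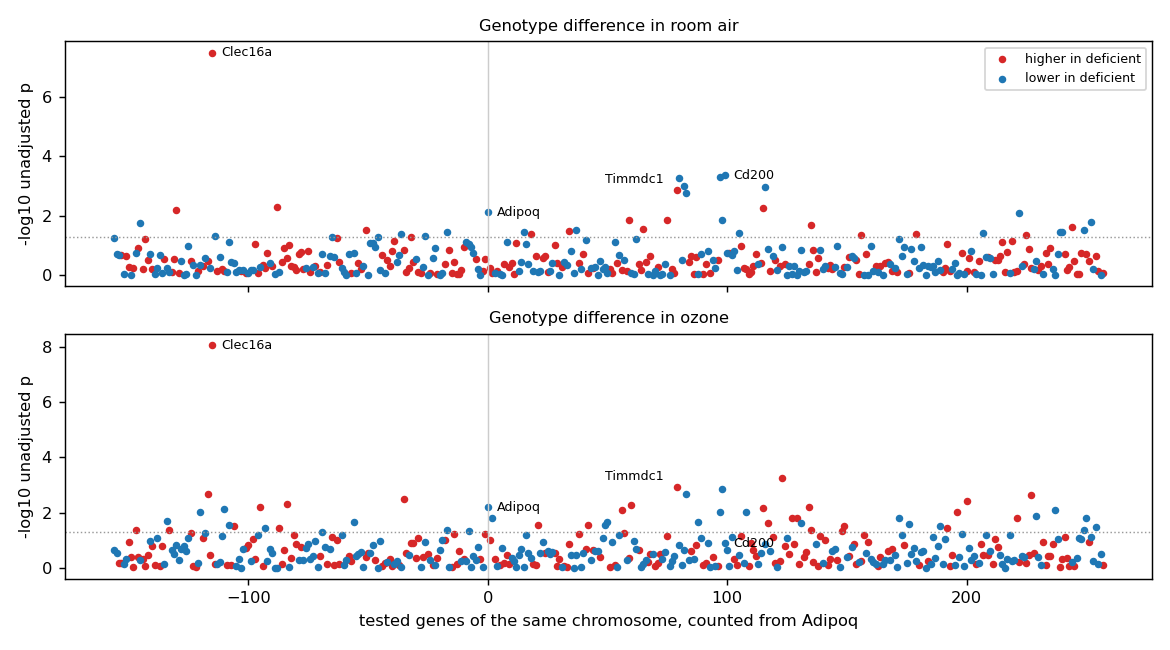
Genotype difference of the 414 tested genes of chromosome 16, in gene order counted from Adipoq at 0 (horizontal axis), as -log10 of the unadjusted limma p (vertical axis), in room air above and ozone below, red where the deficient lungs were higher and blue where lower. Clec16a stands highest in both panels, and the dotted line marks a p of 0.05.

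The 20 genes of smallest p in air, Clec16a among them, are described as a ranking; adjusted p-values of the other 19 lay between 0.135 and 0.406, so none of these passed. Of the 20, 15 were lower and 5 higher in the deficient lungs, and 16 did not overlap between the groups, as did 302 of all genes (2.44%, with 0.815% higher and 1.62% lower). The air and ozone differences of a gene share the same SE, from the fit of all 16 arrays. A choice by small p in air therefore also favours a small p in ozone. The ozone values of the 20 come from other mice. There 15 of the 20 had the same sign, against 60.3% of all genes, and 8 had an unadjusted p under 0.05, against 11.2% of all genes; over all genes 5.49% did not overlap in ozone. The groups did not overlap in the same direction in both exposures for 6 of the 20, Clec16a, Atp8a1, Uchl1, Tesc, Slc35a5 and Ttc28, as for 27 of all genes (0.218%).

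Among genes of the cytoskeleton, the matrix and Notch signalling, Kank2, an adaptor at focal adhesions, was 9.68, 9.60, 9.67 and 9.66 in wildtype and 9.05, 9.32, 9.33 and 9.16 in deficient air. The wildtype arrays lay close together, all above the deficient ones, and the difference was -0.44 ± 0.0721 (adjusted p = 0.135). In ozone it was 0.04 ± 0.0721, and the interaction did not pass (adjusted p = 0.673). Dlc1, a tumour suppressor found at focal adhesions, was 7.64, 7.47, 6.95 and 7.26 in wildtype and 6.88, 6.82, 6.81 and 6.73 in deficient air, nearly level over the deficient arrays. It differed by -0.52 ± 0.0939 (adjusted p = 0.147). Without wildtype F1, the wildtype array nearest the deficient ones, it was called at -0.62 (adjusted p = 0.00873). Without the 3 arrays with foreign markers, wildtype F1 among them, it differed by -0.59 and was not called (adjusted p = 0.323). In ozone it differed by -0.07 ± 0.0939. Heyl, a transcription factor downstream of Notch, differed by -0.31 ± 0.0723 in air and 0.02 ± 0.0723 in ozone. Fjx1, a homologue of a fly gene of planar cell polarity, differed by -0.50 ± 0.116 with overlapping groups, and its other probe set by -0.05. Mmp19, a matrix metalloproteinase, differed by -0.25 ± 0.0576, also with overlap.

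Among genes of transport, enzymes and signalling, Atp8a1, a flippase that moves phosphatidylserine across membranes, was 12.17, 12.08, 11.91 and 11.86 in wildtype and 10.81, 10.71, 11.68 and 11 in deficient air. All deficient arrays were lower, F1 least so. The difference was -0.96 ± 0.168 in air (adjusted p = 0.147) and -0.54 ± 0.168 in ozone (adjusted p = 0.280), without overlap in either. Without deficient F1, the deficient array nearest the wildtype ones, it was -1.17 in air and was called (adjusted p = 0.00140). Without the 3 arrays with foreign markers, which do not include deficient F1, it was -0.80 and was not called (adjusted p = 0.999). A second, dimmer probe set of Atp8a1 differed by -0.15 ± 0.153. Uchl1, a ubiquitin hydrolase of neurons and neuroendocrine cells, was 5.40, 5.43, 5.51 and 5.28 in wildtype and 4.79, 5.13, 4.97 and 4.86 in deficient air, a difference of -0.47 ± 0.0835 in air and -0.29 ± 0.0835 in ozone. Tesc, a calcium-binding protein, was 6.09, 6.30, 6.60 and 6.31 in wildtype and 6.64, 6.65, 7.46 and 7.38 in deficient air, highest in the deficient females. Its difference was 0.71 ± 0.156 in air and 0.31 ± 0.156 in ozone, and its other probe set differed by 0.20 in air. Ide, the insulin-degrading enzyme, was 9.09, 9.13, 9.94 and 9.57 in wildtype and 9.88, 10.70, 10.31 and 10.30 in deficient air, overlapping at 1 array on each side. It differed by 0.87 ± 0.190 in air and 0.68 ± 0.190 in ozone, and its 4 probe sets lay between 0.47 and 0.87 in air. Ide is also on the list of genes known to differ between C57BL/6 substrains; the 4 others tested, Nnt, Crb1, Cyfip2 and Wdfy1, lay between -0.12 and 0.10. Hgf, hepatocyte growth factor, which supports alveolar epithelium, was 7.41, 7.17, 7.11 and 7.11 in wildtype and 6.79, 6.84, 6.84 and 7.0 in deficient air, lower on every deficient array. It differed by -0.33 ± 0.0735 in air and 0.01 ± 0.0735 in ozone. Ttc28, a tetratricopeptide protein, differed by -0.37 ± 0.0854 in air and -0.46 ± 0.0854 in ozone (adjusted p = 0.0923), without overlap in either, and its dimmer probe set by -0.00 in air. Cabp2, a calcium-binding protein, and Prss37, a serine protease homologue of the testis, were dim and differed by -0.29 ± 0.0661 and -0.31 ± 0.0589. Uchl1 and Mmp19 were no brighter than Cabp2, with means of 5.40 and 5.70 in wildtype air against 5.86.

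Among genes of immune cells, Prf1, perforin, the pore-forming protein of cytotoxic lymphocytes, was 6.44, 6.21, 6.47 and 6.50 in wildtype and 5.49, 5.63, 6.16 and 5.95 in deficient air. Every deficient array was lower, and the difference was -0.60 ± 0.120 (adjusted p = 0.291). In ozone it was 0.16 ± 0.120 with overlap, and the other probe set of Prf1 differed by 0.06 in air. Slamf1, a receptor of activated lymphocytes, differed by 0.34 ± 0.0789 in air and 0.07 ± 0.0789 in ozone. Its other probe sets, both dimmer, differed by 0.03 and 0.08 in air. Igha, the heavy chain of immunoglobulin A, was 8.68, 8.39, 10.63 and 10.50 in wildtype and 10.21, 11.60, 10.91 and 11.99 in deficient air. Its wildtype males were far below the wildtype females, and deficient M1 lay within the wildtype range. The difference was 1.63 ± 0.354, or 3.09-fold (adjusted p = 0.406), 1.22 without the 3 arrays, and 2.05 ± 0.354 in ozone (adjusted p = 0.0674), where the groups did not overlap. The 3 probe sets of Igha lay between 1.58 and 1.67 in air.

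**Figure D5:**
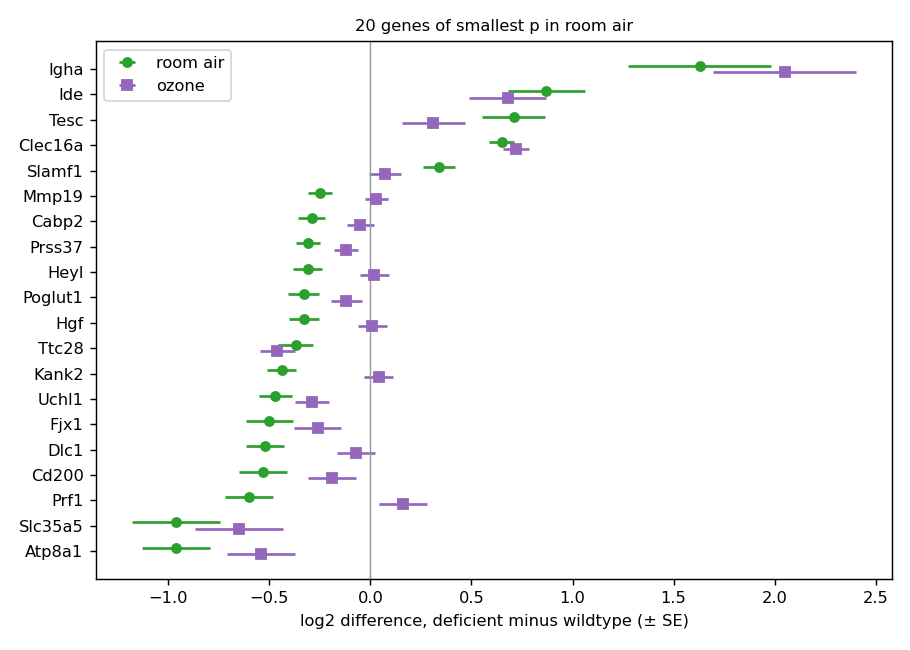
Difference between deficient and wildtype lungs (log2 ± SE) of the 20 genes of smallest p in room air, with the value in air as green circles and in ozone, from other mice, as purple squares. Clec16a lies at 0.65 and 0.72, whereas Kank2, Dlc1, Hgf and Heyl lie near 0 in ozone.

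Genes that stood apart in both exposures were not confined to the 20. The 27 genes whose groups did not overlap in the same direction in air and in ozone comprised 10 higher and 17 lower. Of these, 6 lay on chromosome 5, which holds 6.22% of the genes tested, and 3 on chromosome 16, which holds 3.34%. Pla2g1b, a secreted phospholipase best known from the pancreas, was 8.63, 8.48, 8.57 and 8.62 in wildtype and 8.14, 8.13, 7.95 and 8.33 in deficient air, lower on every deficient array. It differed by -0.44 ± 0.119 in air (adjusted p = 0.596) and -0.76 ± 0.119 in ozone (adjusted p = 0.0531). Pcdhb3, a protocadherin, differed by 0.35 ± 0.0844 and 0.34 ± 0.0844, and Col4a2, a chain of basement membrane collagen, by -0.28 ± 0.0729 and -0.19 ± 0.0729. These genes were chosen after their values were seen, and none of the 27 but Clec16a passed in air. Over all genes Pearson's correlation between the air and ozone differences was 0.22, a description across genes of 1 normalization, with no array in common.

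Sorted by size instead of p, 33 genes (0.266%) differed at least 2-fold in air, 30 higher and 3 lower, and none of them passed. Of the 33, 9 are on the skeletal muscle list and 5 on the squamous list. Krtdap, a protein of differentiating keratinocytes, had the widest difference, 1.99 ± 1.15, and stood at 12.35 on deficient M2 and between 4.58 and 4.88 on the other 7 air arrays. Without the 3 arrays it differed by 0.15. Tnnc2, a troponin of fast muscle, went from 1.90 to -0.01. Without these arrays 9 genes (0.0726%) reached 2-fold, 6 of them among the 33, and 0 were on either list. The median of the muscle list was 0.85 with the 3 arrays and 0.09 without them, and that of the squamous list 0.48 and -0.06. The heart muscle list, which muscle of the pulmonary veins also expresses, kept a median of 0.28 in both, and 15 of its 17 genes lay above 0. Its mean level was lowest on wildtype M1, at 8.33, between 9.07 and 9.79 on the other air arrays, and its median difference was 0.00 in ozone.

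The 3 genes at least 2-fold lower were Adipoq, Pcdhb9 and Stbd1. Pcdhb9, a clustered protocadherin, was 8.12, 7.66, 7.85 and 7.86 in wildtype and 7.22, 6.72, 5.33 and 5.27 in deficient air, all lower and the females most. It differed by -1.74 ± 0.449 in air (adjusted p = 0.561), -1.60 without the 3 arrays, and -0.85 ± 0.449 in ozone with overlap. Stbd1, which tethers glycogen to membranes, was 9.40, 8.81, 8.17 and 8.55 in wildtype and 8.21, 8.10, 7.02 and 6.95 in deficient air, overlapping only at wildtype F1 and deficient M1. It differed by -1.16 ± 0.365 (adjusted p = 0.753). Among the genes at least 2-fold higher were 4 of antibody-secreting cells. Beside Igha these were Jchain, which joins polymeric immunoglobulins, at 1.57 ± 0.866, Ighm, the heavy chain of immunoglobulin M, at 1.24 ± 1.03, and the light chain Iglv1 at 1.28 ± 0.604. Jchain spread over 6.02 to 10.87 in wildtype and 8.30 to 10.84 in deficient air. The 11 probe sets of Ighm lay between -0.07 and 1.60, so its direction depended on the probe set, and near-identical immunoglobulin genes may share probes. The mean level of the B and plasma cell list was highest on wildtype F1, at 8.97, and deficient F2, at 8.79, both with fat markers, and between 7.58 and 8.53 on the other air arrays; its part in these values was not tested. Pigr, the epithelial receptor that carries immunoglobulin A into the airway, differed by 0.63 ± 0.202 (adjusted p = 0.753) with overlap.

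The 50 lists, of pathway genes and cell type markers, held 822 tested genes, and 0 of them were called. Of the 822, 60 (7.30%) had an unadjusted p under 0.05, against 5.91% of all genes. The median of 44 lists lay within 0.1 of 0. The lists of the lung's inflammation were near level, with medians of -0.02 over 28 chemokines, -0.03 over 29 inflammatory cytokines and targets of NF-kB, -0.06 over 29 interferon response genes and -0.00 over 27 acute phase genes. The median was 0.01 over 26 NRF2 and antioxidant genes, 0.04 over 30 PPAR targets and genes of fatty acid oxidation, and 0.03 over 34 cell cycle genes.

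The alveolar type 1 list lay below 0 in 11 of 11 genes, with a median of -0.08, where 51.4% of all genes did; without the 3 arrays 1 of them lay above 0. Spock2, a matrix proteoglycan, was 11.18, 11.21, 11.32 and 11.07 in wildtype and 10.86, 10.84, 11.02 and 10.84 in deficient air, and Ager, the receptor RAGE of these flat cells, was 13.10, 13.07, 13.03 and 13.08 against 12.99, 12.97, 12.87 and 12.93. Neither overlapped, and the differences were small, -0.31 ± 0.115 and -0.13 ± 0.0664, with adjusted p-values of 0.817 and 0.827. Among the 16 genes of alveolar type 2 cells and surfactant, 11 lay below 0 and the median was -0.03. Surfactant proteins Sftpa1, Sftpb and Sftpd differed by -0.21 ± 0.0779, -0.20 ± 0.0776 and -0.16 ± 0.0598, and Sftpc by 0.01 ± 0.0425 (95% interval -0.08 to 0.10) at a level near the top of the scale.

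Of the 29 genes of TGF-beta and BMP signalling, 24 lay below 0, as did 51.4% of all genes, with a median of -0.09. An unadjusted p under 0.05 was reached by 5 of the 29, all lower, against 3.24% of all genes lower at that p. Without the 3 arrays 10 of the 29 were above 0 and the median was -0.10. Bmpr2, the type 2 receptor of bone morphogenetic proteins, was 9.27, 9.05, 9.12 and 8.99 in wildtype and 8.87, 8.50, 8.94 and 8.74 in deficient air, without overlap. It differed by -0.35 ± 0.110 in air (adjusted p = 0.753) and 0.01 ± 0.110 in ozone. The BMP targets Id3 and Id1 differed by -0.28 ± 0.122 and -0.38 ± 0.175, the inhibitory Smad7 by -0.26 ± 0.115 and the BMP antagonist Grem1 by -0.13 ± 0.0589. In ozone 11 of the 29 lay above 0 and the median was -0.03. Of 23 genes of fibroblasts and matrix, 17 lay below 0 with a median of -0.03, and without the 3 arrays 10 lay above 0; Col1a1, a chain of type I collagen, differed by -0.45 ± 0.163 with overlap. Of 22 matrix proteases and inhibitors, 17 lay below 0, and without the 3 arrays 8 lay above 0; Timp3, a matrix-bound protease inhibitor, differed by -0.26 ± 0.0630 in air (adjusted p = 0.479) and -0.23 ± 0.0630 in ozone. In the endothelium list 13 of 19 lay below 0 with a median of -0.08, and without the 3 arrays 9 lay above 0 and the median was -0.00. Ednrb, an endothelin receptor, differed by -0.52 ± 0.159, and Vwf, von Willebrand factor, by 0.27 ± 0.0867 without overlap.

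The lists of lymphocytes were not tested against each other. Of 22 genes of T and NK cells, 15 lay below 0 in air, with a median of -0.09, and 8 lay above 0 without the 3 arrays, with a median of -0.03. In 3 of the 22 the groups did not overlap, all lower, as in 1.62% of all genes. Besides Prf1 these were Eomes, a transcription factor of cytotoxic cells, at -0.24 ± 0.0873, and Ncr1, a receptor of NK cells, at -0.25 ± 0.10, while Il7r, the interleukin 7 receptor, differed by 0.38 ± 0.152 in the other direction. Eomes and Ncr1 were dim, with means of 5.66 and 5.53 in wildtype air. In ozone 19 of the 22 lay above 0, with a median of 0.16. Of 16 genes of B and plasma cells, 13 lay above 0 in air with a median of 0.11, and 15 did without the 3 arrays, with a median of 0.30. Xbp1, a transcription factor of secretory cells, differed by -0.17 ± 0.0960 and did not overlap. Its other probe sets differed by -0.05, 0.05 and -0.02 in air. The mitochondrial respiratory chain had 27 of 32 genes above 0 and a median of 0.07, and 24 above 0 without the 3 arrays. Its median was 0.18 in males alone and -0.00 in females alone.

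The genotype difference was also compared between the sexes in air, each sex with 2 mice per genotype. With limma 0 genes passed for the genotype by sex interaction and 976 (7.88%) had an unadjusted p under 0.05. The 5 of smallest p were Etv5, Rsad2, Tmem243, Usp8 and Slc25a37, with adjusted p-values of 0.352 to 0.365. Etv5, a transcription factor of alveolar type 2 cells whose gene lies 9 tested genes from Adipoq, was 9.02, 8.69, 7.69 and 7.60 in wildtype and 7.71, 7.74, 7.81 and 8.06 in deficient air. The wildtype males stood apart from the other 6 arrays. Rsad2, an interferon-induced antiviral enzyme, was 9.45, 9.36, 7.87 and 8.0 in wildtype and 8.73, 8.98, 9.15 and 8.60 in deficient air, with the wildtype sexes far apart and the deficient ones close together. Slc25a37, the mitochondrial iron importer mitoferrin, was 9.04, 9.32, 7.99 and 7.86 in wildtype and 8.85, 8.65, 8.63 and 8.50 in deficient air. Within males 3 genes (0.0242%) were called, Atp8a1 at -1.37 ± 0.190, Etv5 at -1.13 ± 0.154 and Clec16a at 0.71 ± 0.0904, each with an adjusted p of 0.0469. Within females 1 (0.00807%) was, Tesc at 0.96 ± 0.105 (adjusted p = 0.0113). The interaction of Tesc was 0.51 ± 0.148 (adjusted p = 0.459), so a difference between the sexes was not shown. The interaction gave 251 calls when deficient M1 was left out, in 231 of which the genotype difference was lower in females than in males; deficient M2, with the muscle and squamous markers, is then the only deficient male, and its part in these calls was not tested.

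The air difference was set against the ozone difference for every gene. In limma's genotype by exposure interaction 0 genes passed and 605 (4.88%) had an unadjusted p under 0.05. The smallest p belonged to Saa3, an acute phase protein of the lung, at 7.06, 7.28, 7.68 and 7.58 in wildtype and 6.80, 7.51, 7.81 and 7.25 in deficient air. Its difference was -0.06 ± 0.338 in air and 2.37 ± 0.338 in ozone, where it was called (adjusted p = 0.0270), and the interaction was 2.43 ± 0.477 (adjusted p = 0.673). In ozone 2 genes (0.0161%) were called, Saa3 and Clec16a. Kank2 and Prf1, at 0.48 ± 0.102 and 0.75 ± 0.169, were among the 8 genes of smallest interaction p, and neither passed (adjusted p = 0.673 each).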

How the data were processed

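The authors deposited an intensity for every probe set of each array, made with RMA per the submitters' processing notes, with no software version in the sources used here. These ran from 11.1 to 26974.7, a linear scale, so log2 was taken. Array medians lay within 0.076 log2, so a shift common to all RNA would not show. Of 22690 probe sets, 64 controls, 691 naming several genes and 1555 naming none were left out. The probe set of highest mean stood for its gene (12393 genes, 4956 with several). No detection calls were used.

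limma 3.58.1 in R 4.3.3 (lmFit, eBayes) fitted all 16 arrays with 4 groups and sex, or with 8 groups for the sexes, and adjusted p-values over all genes. Adipoq was also tested by exact permutation. P-values measure the spread between these mice. The fit was checked on simulated data. Members, lists and named genes (the 20 of smallest p, Adipoq, its receptors, Cdh13, the 5 of smallest p in each interaction and widely ranging markers; not every one is printed) were chosen with earlier results of these data known, and others were named after their values were seen. Wildtype ozone F1 is called room air in its free description only and stayed in ozone. Gene order and promoters are RefSeq's (GRCm38.p6). Alternatives were other normalizations, filters, probe set rules and models, the sexes alone and arrays left out. Figures were drawn with matplotlib 3.10.9, pandas 2.3.3 and Python 3.11.15.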

Additional observations from a re-analysis of the deposited data

Results flagged for a closer look

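Among 140 checks of 70 named genes in the 2 air groups, 2 arrays lay far from the other 3 of their group by Dixon's test; chance marks about 1 in 20 groups. Spock2 was 11.02 on deficient air F1 and between 10.84 and 10.86 on the other deficient air arrays. Col1a1 was 10.91 on wildtype air F1, an array with fat markers, and between 10.20 and 10.28 on the other wildtype air arrays.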

How the results depend on the processing

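Clec16a was the only call in air with the values quantile normalized again or shifted to 1 median, without the dimmest 20% of genes, with probe sets averaged or taken singly, with a trended robust prior, array weights or a pseudocount of 32, without a sex term, in the air arrays alone, without the 3 arrays with foreign markers, and at an adjusted p under 0.01 or at least 1.5-fold. Except in 1 sex alone, where it was not called, its adjusted p ranged from 9.36e-05 to 0.0357. With the replicate numbers as a block it was also the 1 call, and the block changed no other call. The labels do not say whether the numbers pair the mice. Deviations of same-numbered wildtype and deficient air arrays correlated at 0.18, -0.46, -0.42 and -0.40. These deviations were taken after a fit of group and sex, which by itself pushes such correlations below 0. They therefore cannot show whether the mice were paired. In air 2 genes were called with 8 groups (Clec16a and Tesc, 0.71), 1 with males alone (Atp8a1) and 5 with females alone (Marco, Pcdhb9, Slc35a5, Slfn4 and Tesc), where Pcdhb9 was the 1 call of the interaction with exposure, an alternative chosen after seeing the data. Leaving out 1 array gave 1 to 2 calls in air, with Dlc1 added without wildtype F1 and Atp8a1 without deficient F1. It gave 0 to 251 for genotype by sex, with 251 without deficient M1 and 1 each without wildtype M2 (Myl7) and wildtype F2 (Igkv15-103). The causes were not tested. Adipoq ranged from -2.35 to -0.91 with 1 array left out, the latter without wildtype F1, and was -1.40 without the 3 arrays with foreign markers (exact permutation p = 0.20, the smallest possible there), also chosen after seeing the data.

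Of 2134 values of named genes under alternatives, 2104 kept direction and side of the threshold and 20 changed sign, none of them of Clec16a. Sftpc was -0.03 under quantile normalization, -0.12 as a mean of probe sets and -0.00 without the 3 arrays, and Ciita was -0.03 as a mean of probe sets. In males alone Dexi was 0.15, Rsad2 -0.55 and Slc25a37 -0.43. In females alone Adipor1 was 0.01, Ighm -0.04, Id1 0.03, Sftpb 0.01, Etv5 0.29, Tmem243 0.20 and Usp8 0.19. With 1 array left out Dexi ranged from -0.20 to 0.08, Rsad2 from -0.04 to 0.38, Slc25a37 from -0.02 to 0.26 and Saa3 from -0.19 to 0.06. With 4 mice per group the median 95% interval, not adjusted for the number of genes, reached 0.176 to either side. Smaller differences could thus not be told from 0 for many genes even before adjustment. A call needed more: Kank2, at -0.44 ± 0.0721 in air, did not pass (limma adjusted p = 0.135).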
